A study of Mus musculus with 8 samples.

Results

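The stem cell heptad is a set of transcription factors that occupy enhancers together in hematopoietic stem and progenitor cells, their own enhancers included. The open chromatin around 6 of its genes, Gata2, Tal1, Lyl1, Lmo2, Erg and Fli1, is described here in leukemic granulocyte-macrophage progenitors (L-GMPs). L-GMPs are the cells with leukemia stem cell activity in mice whose acute myeloid leukemia is driven by the MLL-AF9 fusion. A peak was taken for a gene when its summit lay inside the gene's span in the mm10 assembly or within 100 kb of either end. Peaks of the 8 libraries that shared at least 1 bp were joined into 138385 regions, of which 253 held such a summit. They comprised 37 regions at Gata2, 25 at Tal1, 37 at Lyl1, 44 at Lmo2, 58 at Erg and 52 at Fli1.

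GATA2 is a zinc finger protein that binds the letters GATA. TAL1 and LYL1 are related basic helix-loop-helix proteins that bind E-boxes (CANNTG) as partners of E proteins. LMO2 does not bind DNA itself and bridges GATA and helix-loop-helix factors, with LDB1, in one complex. ERG and FLI1 are ETS factors, which bind sequences around GGAA. These proteins hold the stem and progenitor state in place in normal marrow, and endothelium uses several of the same genes.

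ATAC-seq reads open chromatin through the insertion of adapters by a transposase. L-GMPs were sorted from bone marrow as cells with CD34, CD16/32 and c-Kit on their surface and without Sca-1 or lineage markers, and about 5000 cells entered each reaction. The Dek knockout group (KO) had 3 libraries: KO 1 and KO 2 were Dekfl/fl,MX1-Cre, and KO 3 was Dekfl/fl;Tie2-Cre. The mutant group (4S-A) had 2 libraries, whose genotype, Dek-Ser306A/Ser308A/Ser311A/Ser312A, puts alanine in place of 4 serines of DEK, a chromatin protein. The control group (FL) had 3 libraries: FL 1 and FL 2 were Dekfl/fl, and FL 3, although titled FL, was Dek+/+. All mice carried MLL-AF9. KO 1, KO 2, FL 1 and FL 2 are called the Mx1-Cre set, and KO 3, 4S-A 1, 4S-A 2 and FL 3 the Tie2-Cre set. These names are shorthand. In the Tie2-Cre set the genotype of KO 3 alone names a Cre line, and in the Mx1-Cre set those of KO 1 and KO 2 alone. The sets also stand in separate blocks of sample numbers, and what the blocks mean is not given. Mx1-Cre is switched on by interferon signalling, and Tie2-Cre is active in endothelium and blood cells. How Mx1-Cre was induced, the age of the mice and whether replicates were separate animals are not given in the sources used here, so the spread between replicates may be technical.

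Lists of the Tie2-Cre set held 91586 to 104605 peaks, and those of the Mx1-Cre set 51510 to 74026 peaks. Read depth is unknown, and list length is the only depth the files show. Presence of a peak and its rank inside its own list were therefore compared, and not its height. Fold enrichment is printed below for 1 region at Gata2, as deposited. The list percentile of a peak is its rank by −log10 q within its library, 100 being the strongest peak. The peaks of a sorted population cannot tell fewer cells of a type from less open chromatin per cell. Of 9 genes that mark the L-GMP gate and program, 7 had a region within 1 kb of a gene end in all 8 libraries, Kit (85.4 to 90.3) and Meis1 (81.6 to 88.9) among them. Fcgr3 had none in KO 1, and Hoxa9 had one in the Tie2-Cre set libraries alone. Of 6 endothelial markers 1, Kdr, was held by all 8 libraries, while each library held 1 to 4 of them and Emcn was held by none. Counts for the other types lay at 1 to 3 of 5 for megakaryocytes, 1 to 4 of 5 for erythroid cells, 1 of 4 for mast cells and basophils, 2 or 3 of 4 for stem cells, and 0 to 2 of 4 for T and B cells. Gp1ba, Gp6, Hba-a1, Cpa3, Ms4a2, Tpsb2, Mecom and Cd3g were held by none. The part of such cells in the results was not tested. A region at Dek itself, chr13:47104867-47106804, was held by all 8 libraries, at 65.7, 73.1 and 85.4 in KO, 89.2 and 87.7 in 4S-A, and 75.6, 78.4 and 82.2 in FL. An open region does not show whether an exon of Dek was deleted, so it does not check the genotypes.

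The promoters that the regions cover are shown because they carry different sets of the heptad's own motifs. Start sites came from RefSeq (GRCm38.p6, the assembly also called mm10), which had entries for Gata2, Tal1, Lyl1 and Erg in the table used. Each sequence runs 5′ to 3′ on the gene's strand, from 250 bases before the start to 50 after it. Capitals mark the GATA motif (printed TATC where it lies on the other strand), the E-box CANNTG, and the ETS core GGAA (printed TTCC where it lies on the other strand), and motifs may overlap.
Gata2 distal start, chr6:88193641-88193940, plus strand: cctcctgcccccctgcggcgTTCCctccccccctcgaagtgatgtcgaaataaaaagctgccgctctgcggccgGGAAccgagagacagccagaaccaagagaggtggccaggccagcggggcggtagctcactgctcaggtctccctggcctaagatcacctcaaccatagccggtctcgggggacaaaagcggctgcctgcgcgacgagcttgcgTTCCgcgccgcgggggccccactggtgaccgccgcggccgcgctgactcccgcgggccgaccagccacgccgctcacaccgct
Gata2 inner start, chr6:88198414-88198713, plus strand: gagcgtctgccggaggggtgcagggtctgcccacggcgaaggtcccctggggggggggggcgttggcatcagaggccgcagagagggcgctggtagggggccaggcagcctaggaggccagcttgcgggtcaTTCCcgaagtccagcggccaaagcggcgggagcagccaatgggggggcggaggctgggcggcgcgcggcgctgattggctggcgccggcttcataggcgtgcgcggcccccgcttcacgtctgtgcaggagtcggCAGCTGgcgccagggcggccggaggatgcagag
Lyl1 start, chr8:84701207-84701506, plus strand: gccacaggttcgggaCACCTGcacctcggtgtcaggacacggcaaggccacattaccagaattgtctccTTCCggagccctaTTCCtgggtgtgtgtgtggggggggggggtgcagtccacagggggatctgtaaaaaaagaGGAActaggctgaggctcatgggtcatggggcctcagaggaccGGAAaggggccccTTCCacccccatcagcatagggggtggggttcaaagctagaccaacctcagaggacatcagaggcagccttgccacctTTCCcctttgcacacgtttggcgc
Erg inner start, chr16:95459299-95459598, minus strand: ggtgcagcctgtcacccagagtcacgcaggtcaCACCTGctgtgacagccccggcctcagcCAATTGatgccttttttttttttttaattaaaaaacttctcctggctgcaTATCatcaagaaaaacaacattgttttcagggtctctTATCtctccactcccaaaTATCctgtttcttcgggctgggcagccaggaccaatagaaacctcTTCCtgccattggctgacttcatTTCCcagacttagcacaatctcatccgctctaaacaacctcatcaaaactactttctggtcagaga

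The Gata2 distal window held 3 GGAA cores and neither of the other motifs. The Gata2 inner window held 1 GGAA core and 1 E-box, which lies 17 bases after the start. In the Lyl1 window 6 GGAA cores and 1 E-box were found and no GATA. The Erg window held all 3 kinds, with 3 GATA, 2 E-boxes and 2 GGAA cores. Over 21036 such windows of protein-coding genes, 52.8% held GATA, 69.0% an E-box, 95.7% a GGAA core and 36.8% all 3, so each motif is common at this length. A match is a run of letters and does not show binding.

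Shared regions were most frequent at Lyl1 and Gata2 and least frequent at Fli1. Of the 253 regions of the loci, 72 were held by all 8 libraries, which is 28.5%, against 24.1% of all regions, and 52 were held by 1 library, which is 20.6%, against 23.5%. The share held by all 8 was 40.5% at Lyl1, 37.8% at Gata2, 31.0% at Erg, 25.0% at Lmo2, 24.0% at Tal1 and 15.4% at Fli1. A member was the nearest protein-coding gene for 130 of the regions. These were 47 at Erg, 34 at Fli1, 31 at Lmo2, 13 at Gata2, 4 at Tal1 and 1 at Lyl1, so most regions at Tal1 and Lyl1 lay nearer to another gene. Inside the gene's own span were 35 regions at Erg, 24 at Fli1, 7 at Lmo2, 4 at Gata2, 2 at Tal1 and 0 at Lyl1. On the 12 edges of the windows, the outermost regions inside lay 49.6 to 99.8 kb from the gene and were held by 1 to 8 libraries (median 5). The nearest regions outside lay 100.4 to 208.8 kb away and were held by 1 to 8 libraries (median 7).

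**Figure D1:**
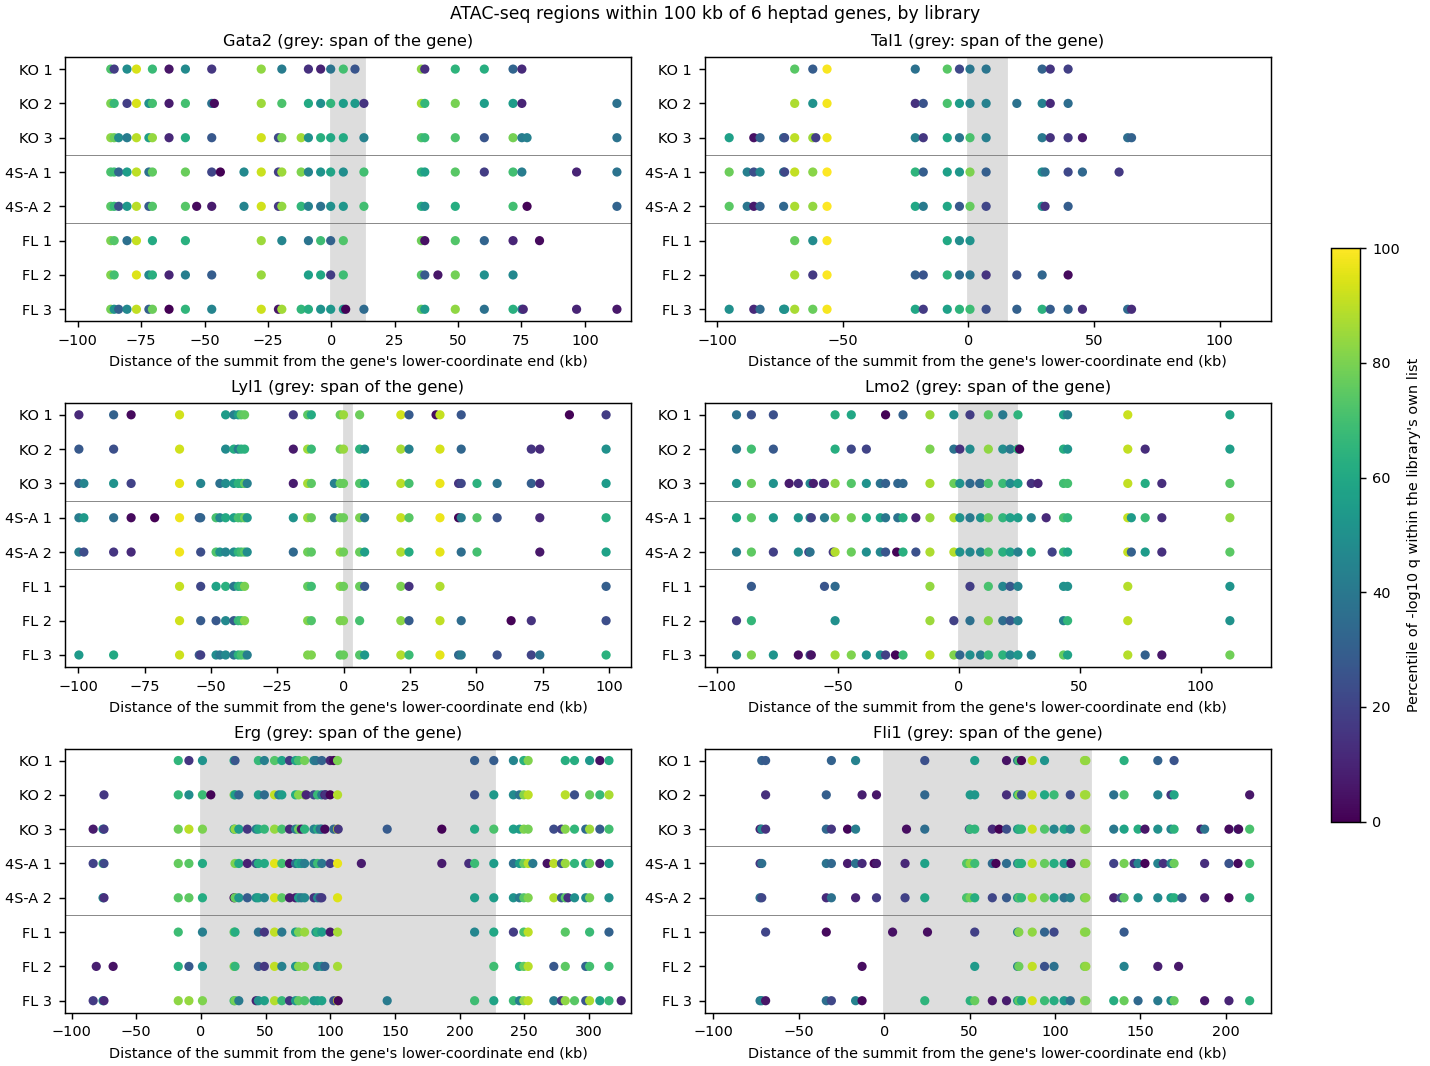
Each panel plots the regions of 1 gene for the 8 libraries (rows), against the distance of the region's strongest summit from the lower-coordinate end of the gene in kb. Colour gives the list percentile, and the grey band is the gene's span. Rows of the Mx1-Cre set (KO 1, KO 2, FL 1, FL 2) hold fewer points than those of the Tie2-Cre set, while the strong regions, such as that about 77 kb below Gata2, run through all rows.

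Gata2 had a strong far enhancer, held by all libraries, and regions of lower rank inside the gene. Its strongest region, chr6:88116444-88117611, lies 76.8 kb upstream of the distal start, at the place of the -77 enhancer known for driving Gata2 in progenitors, and nearest to Rpn1. It ranked at 93.8, 93.9 and 89.8 in KO, 89.9 and 89.8 in 4S-A, and 91.1, 94.8 and 90.8 in FL. All 8 libraries held it in the top of their lists, and KO overlapped both other groups. By list percentile both 4S-A libraries lay below the 3 of FL, within 6 points of each. In the rank fit below, 4S-A minus FL was -3.47 ± 3.92 points (SE) there and did not pass the test (limma, adjusted p = 0.856). Fold enrichment at the summit of this region, as the authors deposited it for each library, was 7.44 to 9.78 in KO, 7.56 and 8.01 in 4S-A, and 7.28 to 9.95 in FL. These values are not scaled between libraries, so the groups were not compared by them. Another strong region, chr6:88165517-88166666, had list percentiles of 83.4 to 92.8 and was nearest to Gata2.

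The 2 RefSeq starts of Gata2 were open in all libraries at middle ranks. The distal start region, chr6:88193456-88194383, ranked at 38.5, 65.6 and 60.0 in KO, 58.4 and 49.7 in 4S-A, and 31.6, 17.9 and 52.9 in FL. The inner start region, chr6:88198478-88199080, ranked at 70.3, 55.4 and 60.6 in KO, 48.8 and 52.7 in 4S-A, and 72.6, 68.8 and 53.9 in FL. The 3 groups overlapped at the distal start. By list percentile KO and FL overlapped at the inner start, and both 4S-A libraries lay below the other 6. Among the regions shared by all 8 libraries, defined below with the rank fit, 4S-A 2 (12.8) lay above FL 3 (9.07). There 4S-A minus FL was -7.78 ± 12.3 points (SE) and did not pass the test (limma, adjusted p = 0.912). The +9.5 enhancer in the gene, which is known from mouse work to be needed for blood stem cells, coincided with chr6:88203087-88203571. It held a peak in KO 1 (26.3) and KO 2 (54.2) and in none of the other 6 libraries, KO 3 included. No library held a peak at the -2.8 element. The upper end of the gene, chr6:88206452-88206922, ranked highest in 4S-A and was held by KO 2 (14.9), KO 3 (43.8), 4S-A 1 (69.8), 4S-A 2 (69.8) and FL 3 (34.7). A region at chr6:88159013-88159607, nearest to Gata2, was held by 4S-A 1 (47.2) and 4S-A 2 (44.9) alone.

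At Tal1 the strongest region belonged to the neighbourhood of another gene. It was chr4:114999561-115000786, nearest to Stil, and it ranked between 97.1 and 99.8 in the 8 libraries. The region between the 2 RefSeq starts of Tal1, chr4:115056507-115057537, ranked at 39.8, 45.5 and 71.3 in KO, 80.3 and 76.4 in 4S-A, and 51.3, 38.7 and 68.7 in FL. Libraries of the Tie2-Cre set lay higher there (68.7 to 80.3) than those of the Mx1-Cre set (38.7 to 51.3) within the whole lists. Among the regions shared by all 8 libraries, defined below with the rank fit, the difference was 9.56 ± 7.66 points (SE) and did not pass the test (limma, adjusted p = 0.392).

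The known enhancers of Tal1 ranked low or in the middle of the lists. The -4 element, chr4:115052592-115053050, was held by all 8 libraries at 21.8, 55.3 and 39.3 in KO, 52.7 and 27.5 in 4S-A, and 48.7, 34.9 and 64.5 in FL. The +19 element, chr4:115075563-115075869, which is active in stem cells and endothelium, held a peak in KO 2 (37.8), FL 2 (25.2) and FL 3 (30.8) and in neither 4S-A library. The +40 element, chr4:115095700-115097483, known as an erythroid enhancer, was held by 7 libraries at ranks from 3.11 to 35.4, with no peak in FL 1. The 3 groups overlapped at the -4 element.

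Lyl1 had a strong promoter, and its window was shared with many other genes. The region at its start, chr8:84701151-84701907, ranked at 84.9, 84.8 and 76.8 in KO, 77.5 and 78.0 in 4S-A, and 77.7, 80.2 and 76.7 in FL. The 3 groups overlapped, and the list percentiles of all libraries lay within 10 points. Ranked among the regions shared by all 8 libraries, it ran from 38.9 to 74.7 and differed by set, as given below. The strongest region of the window, chr8:84638501-84640001, was nearest to Cacna1a and ranked from 91.2 to 98.0. The region beside the start, chr8:84699821-84700385, nearest to Trmt1, ranked from 75.4 to 84.0.

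Lmo2 had its strong regions outside the gene. The strongest, chr2:104027411-104028963, lies 45.9 kb above the gene, nearest to 4931422A03Rik, and ranked at 92.1, 90.7 and 90.9 in KO, 91.1 and 91.4 in 4S-A, and 89.0, 90.6 and 88.8 in FL. Its list percentile varied by under 4 points over the 8 libraries, while its rank among the shared regions differed by set, as given below. The strongest that was nearest to Lmo2 itself, chr2:103944953-103947276, lies 11.9 kb below the gene and ranked from 80.2 to 90.5. A region inside the gene, chr2:103969371-103970661, ranked at 74.1, 83.5 and 71.2 in KO, 76.9 and 71.7 in 4S-A, and 70.8, 82.3 and 67.4 in FL. Of the gene's 2 ends, the lower one, chr2:103958209-103958497, was held by KO 2 (14.1), KO 3 (51.6), 4S-A 1 (50.8), 4S-A 2 (51.1) and FL 3 (33.0). The upper one, chr2:103982212-103982548, was held by all 8 at 43.4 to 65.2.

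Erg had the most regions, most of them inside the gene. Its strongest region, chr16:95464357-95465042, ranked at 79.7, 88.8 and 92.7 in KO, 96.7 and 94.6 in 4S-A, and 86.4, 86.6 and 92.7 in FL. Both 4S-A libraries lay above the other 6 in their own lists, and the share of all regions with that order was not computed. In the rank fit below, 4S-A minus FL was 4.88 ± 4.57 points there (SE, limma, adjusted p = 0.813). For 4S-A minus KO it was 10.2 ± 4.57 points (adjusted p = 0.496), and neither passed. Of the 3 RefSeq starts, the inner one shown above was covered by chr16:95459028-95459651, which was held by KO 1 (9.20), KO 2 (0.0230), 4S-A 1 (17.4) and FL 1 (6.30), all near the bottom of their lists. The upper end of the gene, where the outermost start lies, had a region in all 8 libraries, chr16:95585193-95586159, at 29.2, 53.9 and 71.7 in KO, 54.9 and 54.8 in 4S-A, and 59.7, 69.5 and 58.1 in FL. Upstream of that start by 45.4 kb, chr16:95631647-95632259 ranked at 89.7 in 4S-A 1 and 88.0 in 4S-A 2, against 22.8 in KO 3 and 27.3 in FL 2 and 41.3 in FL 3, with no peak in KO 1, KO 2 and FL 1. Both 4S-A libraries ranked it high and the other 6 lower or not at all. It was picked after its values were seen, and was not in the rank fit, which takes regions held by all 8 libraries.

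Fli1 had the smallest share of regions held by all 8 libraries. Its strongest region, chr9:32508279-32510542, lies inside the gene and ranked at 91.3, 91.4 and 92.3 in KO, 90.5 and 88.9 in 4S-A, and 83.4, 90.5 and 93.9 in FL. FL 1 was the lowest and FL 3 the highest, so the control group spanned the others. Near the upper end of the gene, chr9:32540053-32541664 ranked from 78.8 to 85.8 in the 8 libraries. Inside the gene, chr9:32470203-32470799 was held by 4S-A 1 (72.4) and 4S-A 2 (71.0) alone.

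**Figure D2:**
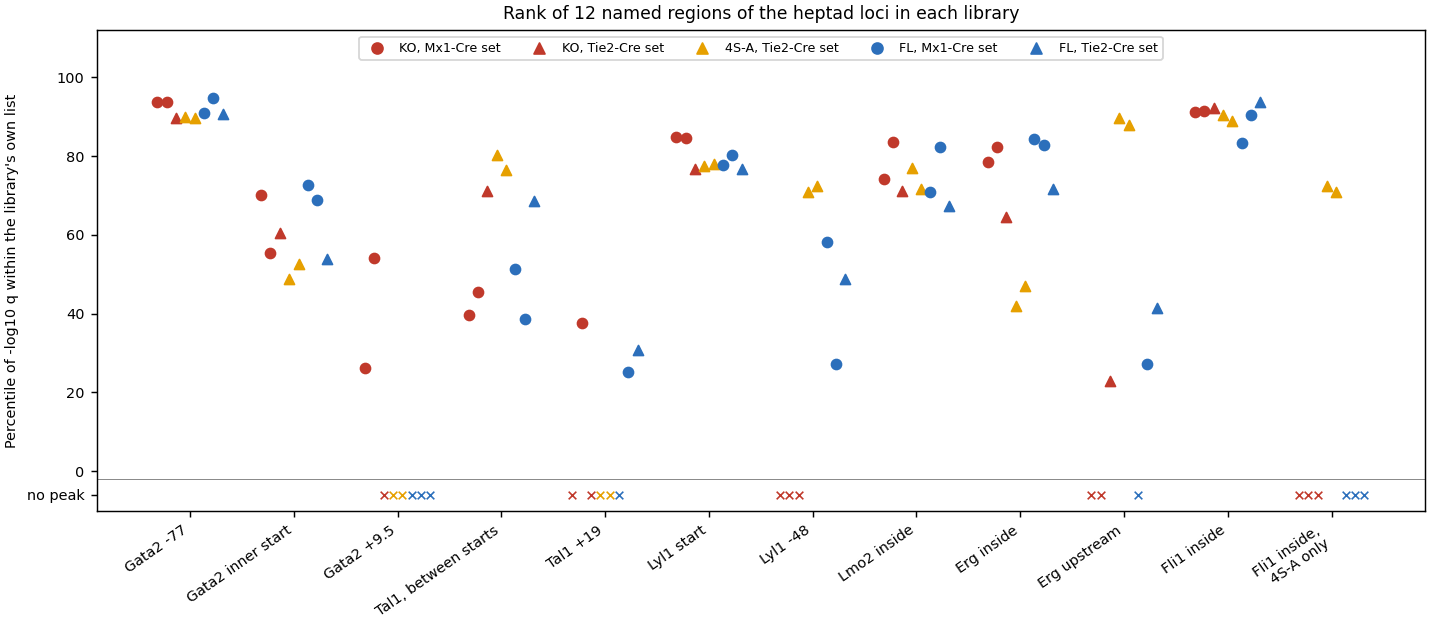
List percentile (0 to 100) of 12 named regions in each of the 8 libraries, with crosses below the line for libraries that hold no peak. From left to right at each region stand KO 1 to 3 (red), 4S-A 1 and 2 (orange) and FL 1 to 3 (blue), circles for the Mx1-Cre set and triangles for the Tie2-Cre set. Lyl1 -48 is the region 48.1 kb upstream of Lyl1, and Erg upstream that 45.4 kb upstream of its outermost start. The -77 region of Gata2 and the strongest region of Fli1 stay near the top in all libraries, while the +9.5 region has a peak in KO 1 and KO 2 alone.

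The first comparison asked whether loss of DEK opened or closed chromatin at these genes. A region was called lost when all FL libraries and no KO library held a peak in it, and gained in the reverse case. No region whose nearest gene was a member was lost (0 of 42) or gained (0 of 52) over 3 KO and 3 FL libraries. Over all 253 regions, 1 of 79 was lost, which is 1.27%, against a background of 0.214% of all regions. In the other direction 1 of 104 was gained, which is 0.962%, against 0.754%. Both lay in the Lyl1 window. The lost region, chr8:84652913-84653563, nearest to the immediate early gene Ier2, had no peak in the 3 KO libraries, against list percentiles of 58.2, 27.3 and 48.8 in FL. It ranked at 70.9 and 72.5 in 4S-A. The gained region, chr8:84682254-84682679, nearest to Nacc1, ranked at 17.2, 7.02 and 7.80 in KO, against no peak in the 3 FL libraries, and at 50.7 and 33.7 in 4S-A. All 3 of its KO peaks were in the lower part of their lists, and it was not called gained with lists of equal length or with peaks of −log10 q of at least 5. Without FL 3 the gained count became 14, without KO 2 it became 2, and without KO 3 the lost and gained counts were 2 each. A call needs all libraries of a group and none of the other, so leaving out a library can only keep or raise a count. This holds for such counts in the comparisons below too, and the share of all regions was not computed for any of them.

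Inside the Mx1-Cre set the KO lists were longer than the FL lists, and more regions were gained than lost in the loci as elsewhere. KO against FL (2 against 2) gained 15 of 106 regions, which is 14.2%, against 13.5% of all regions, and lost 2 of 79, which is 2.53%, against 2.07%. The gains were 4 at Fli1, 3 each at Lyl1 and Erg, 2 each at Gata2 and Lmo2, and 1 at Tal1. By mean list percentile the strongest 3 were chr2:103913018-103914204 at Lmo2 (59.5 and 21.8 in KO 1 and KO 2), chr9:32591702-32592099 in the Fli1 window, nearest to Ets1 (25.5 and 58.9), and chr16:95647837-95648351 in the Erg window, nearest to Ets2 (62.5 and 23.9). FL 3 held those 3 at 80.8, 76.3 and 74.0, and it held 13 of the 15 gains, the +9.5 region of Gata2 and the region nearest to Nacc1 being the exceptions. The other lost region, chr8:84647300-84647737, nearest to Cacna1a, was held by KO 3 (45.2). The gained count was 35 without KO 1, 25 without KO 2 and 26 without FL 2, and the lost count was 5 without KO 2, 9 without FL 1 and 6 without FL 2.

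KO 3 was set against FL 3 inside the Tie2-Cre set, 1 library each, with no replicate check. KO 3 gained 27 of 195 regions, which is 13.8%, against 15.3% of all regions, and lost 10 of 178, which is 5.62%, against 14.4%. With lists of equal length the balance turned, to 14 gained and 20 lost. The share of all regions at that setting was not computed, so the turn cannot be set against it. No region of the loci was lost in 1 set and gained in the other. Those lost in both sets and gained in both were the 2 named at Lyl1.

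The second comparison asked what the 4 serine changes did, and set the 2 libraries of 4S-A against FL 3, the only control of that set. 4S-A gained 14 of 165 regions, which is 8.48%, against 16.4% of all regions, and lost 14 of 178, which is 7.87%, against 11.7%. By locus the gains were 4 at Lyl1, 3 at Fli1, 2 each at Tal1, Lmo2 and Erg, and 1 at Gata2. The losses were 4 each at Tal1 and Erg, 3 at Gata2, and 1 each at Lyl1, Lmo2 and Fli1. By mean list percentile over the libraries that held them, the strongest 3 gains were the region in Fli1 given above (72.4 and 71.0), chr8:84751455-84751933 in the Lyl1 window, nearest to Nfix (73.6 and 70.0, and 63.8 in KO 3), and the region nearest to Gata2 held by 4S-A alone (47.2 and 44.9). In 4S-A itself a region in Erg, chr16:95436659-95437167, ranked above that last one on average (53.3 and 40.9, and 5.91 in KO 3). The strongest losses were weak in FL 3. They were chr4:115119484-115120161 in the Tal1 window, nearest to Cyp4x1 (34.7 in FL 3), chr16:95503048-95503578 in Erg (41.3) and the +19 element of Tal1 (30.8). KO 3 held the first 2 of these, at 35.8 and 28.4. Without 4S-A 1 the gained and lost counts were 24 and 26, and without 4S-A 2 the gained count was 35. Over the series 7 regions of the loci were held by both 4S-A libraries and no other, 4.24% of the 165 that both held, against 9.75% of all regions. They were 2 each at Tal1, Lmo2 and Fli1 and 1 at Gata2. No region held by all 6 KO and FL libraries was missing from both 4S-A libraries (0 of 74), against 1.36% of all regions. Some markers of other blood cells differed in 4S-A too, and in both directions. The region at Itga2b, a megakaryocyte gene, ranked at 1.93 in 4S-A 1 with no peak in 4S-A 2, against 32.3 to 72.4 in the 6 KO and FL libraries. Pf4, of the same list, went the other way, at 52.0 and 43.4 in 4S-A against 9.88 to 41.1 in those 6. Klf1, an erythroid gene, was held at 50.2 and 53.7 in 4S-A and 26.9 in KO 3, and by no other library. Their part in the result was not tested.

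The number of regions held followed the set. KO 1, KO 2 and KO 3 held 117, 138 and 195 of the 253 regions, 4S-A 1 and 4S-A 2 held 198 and 176, and FL 1, FL 2 and FL 3 held 92, 104 and 178. The mean was 150.0 ± 40.4 in KO (SD, n = 3), 187.0 ± 15.6 in 4S-A (n = 2) and 124.7 ± 46.6 in FL (n = 3), and each library of the Tie2-Cre set exceeded each of the Mx1-Cre set. Relative to the share of all regions that the same library held, the loci stood 7.93, 4.64 and 11.7 percentage points higher in KO, 4.90 and 3.62 higher in 4S-A, and 1.91, 4.06 and 5.63 higher in FL. All 8 libraries were above 0. KO averaged 8.08 ± 3.52 points and FL 3.87 ± 1.87 points (SD, n = 3 each), with KO 2 below FL 3, so the groups overlapped. Within each set KO was higher, by means of 6.28 against 2.99 points in the Mx1-Cre set and at 11.7 points in KO 3 against 5.63 in FL 3. With lists of equal length KO minus FL was 1.76 points, with an SD of 3.46, in place of 4.21 points, and 4 regions in place of 25.3. Without KO 3 it was 2.51 points and 2.83 regions. Without FL 1 the difference was 9 regions, without FL 2 it was 15, without KO 1 it was 41.8 and without FL 3 it was 52. These values carry no p, since the genes were chosen as a group, and 3 against 3 libraries cannot give an exact p below 0.1.

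The loci differed among themselves in this measure. Gata2 and Lyl1 stood above the library's own share in all 8 libraries, at 2.32 to 18.4 points for Gata2 and 9.55 to 21.1 points for Lyl1. Fli1 stood below it in 6 libraries, at -5.62 and -5.68 points in KO 1 and KO 2, -0.557 in 4S-A 2, and -9.46, -14.0 and -5.11 in FL 1, FL 2 and FL 3. It stood above it in KO 3 (7.68) and 4S-A 1 (5.49). At Gata2 both 4S-A libraries (2.32 and 4.33) were the lowest of the 8, and at Erg likewise (0.779 and -0.424). At Lmo2 (1.64 and 9.06) and Fli1 (5.49 and -0.557) both lay above each FL library. The share of other genes with such an order was not computed.

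**Figure D3:**
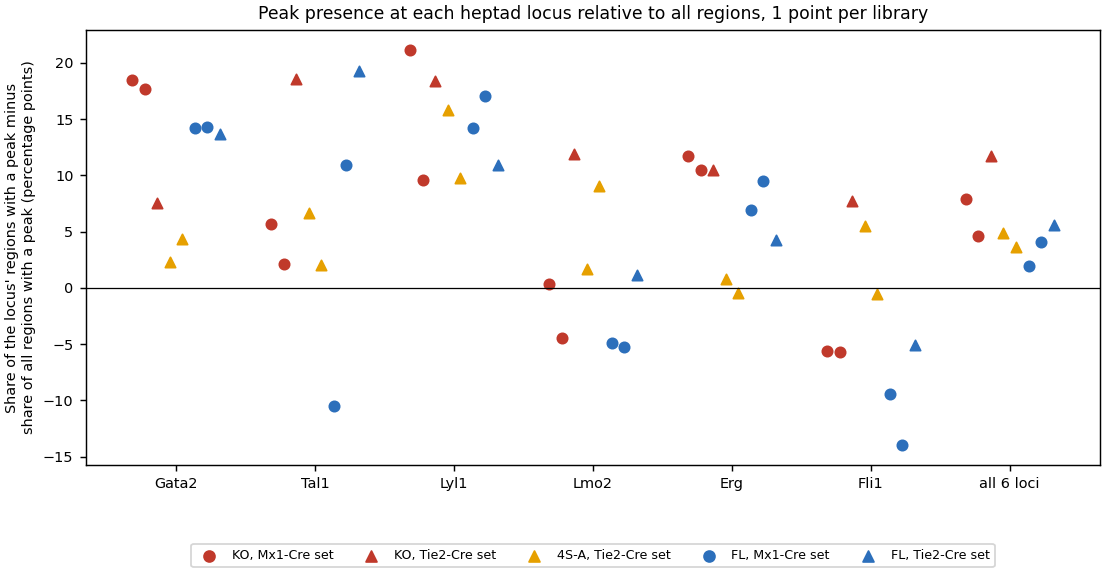
For each locus and for all 6, the y axis gives the share of the locus' regions that a library held, less the share of all regions it held, in percentage points, with 1 point per library. KO is red, 4S-A orange and FL blue, from left to right, with circles for the Mx1-Cre set and triangles for the Tie2-Cre set. Over all 6 loci the 8 values lie between 1.91 and 11.7, and at Fli1 the FL libraries lie between -14.0 and -5.11.

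A rank fit then compared the strength of regions that all 8 libraries held. The 33321 such regions were ranked anew by −log10 q within each library (the shared percentile, 100 being the strongest), and limma fitted group and set over all 8 libraries, with Benjamini-Hochberg adjustment over all of them. The loci had 72 shared regions, 18 at Erg, 15 at Lyl1, 14 at Gata2, 11 at Lmo2, 8 at Fli1 and 6 at Tal1. For KO minus FL, 0 of 72 passed an adjusted p of 0.05, as did 0% of all shared regions, and the smallest adjusted p in the loci was 0.357. At an unadjusted p under 0.05 there were 5 of 72, which is 6.94%, all lower in KO, against 10.1% of all. The median difference was -2.83 points in the loci and -0.07 points over all shared regions.

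The region of smallest p for KO minus FL lay inside Erg, chr16:95452522-95452833, and was named after its values were seen, as are the next 2. Its shared percentile was 10.9, 6.11 and 3.58 in KO, 4.47 and 1.49 in 4S-A, and 35.6, 24.8 and 11.8 in FL. Each KO library lay below each FL library, and the Tie2-Cre set was the lower within both groups. The difference of -17.2 ± 5.50 points (SE) did not pass the test (adjusted p = 0.357), and was -6.89 points when ranked by fold enrichment. KO was below FL without overlap in 2 of 72 regions, this one and chr8:84689097-84689871 in the Lyl1 window (38.7, 33.1 and 36.0 in KO, against 54.1, 56.2 and 48.5 in FL), which is 2.78%, against 3.45% of all. It was above FL in 1 of 72, the distal start of Gata2 (15.6, 29.8 and 15.1 in KO, against 12.7, 3.33 and 8.48 in FL), which is 1.39%, against 3.32%.

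For 4S-A minus FL, 0 of 72 regions passed, against 0.171% of all shared regions (0.105% higher and 0.066% lower in 4S-A), and the smallest adjusted p was 0.231. At an unadjusted p under 0.05 there were 8, which is 11.1%, against 10.5% of all, with 6 lower and 2 higher in 4S-A. The median difference was -2.31 points in the loci and -0.10 over all. Erg had 4 of the 6 lower ones and a median of -11.5 points over its 18 regions. The smallest p was at its lower end, chr16:95359959-95360931, with shared percentiles of 15.6 and 19.7 in 4S-A, 27.1, 33.9 and 47.4 in KO, and 22.2, 27.3 and 48.2 in FL. 4S-A lay below the other 6 libraries, at -28.4 ± 9.06 points (SE) against FL. That difference was -14.9 points without set as a term and -5.95 points when ranked by fold enrichment (limma, adjusted p = 0.999), and did not pass in any of them. For 4S-A minus KO, 0 of 72 passed, against 0.195% of all (0.108% higher and 0.087% lower), with 6 at an unadjusted p under 0.05, which is 8.33%, against 9.53%, and a median of 0.18 points. The smallest adjusted p, 0.128, was inside Erg at chr16:95415762-95416662, with 85.9 and 83.1 in 4S-A and 55.2, 79.9 and 57.6 in KO, and with 85.5, 84.2 and 68.0 in FL. That difference was 29.2 ± 7.04 points (SE). In the set alone, 4S-A lay above KO 3 and FL 3 in 14 of the 72 regions, which is 19.4%, against 22.5% of all, and below both in 15, which is 20.8%, against 23.1%.

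**Figure D4:**
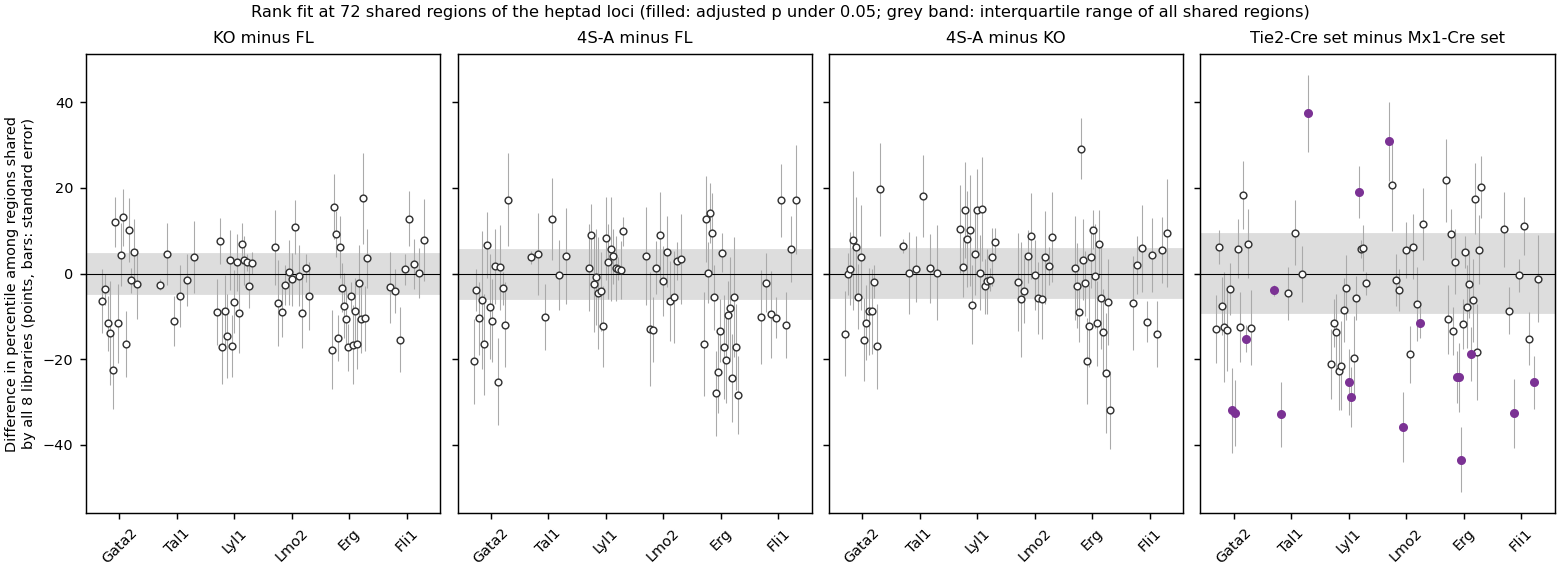
Differences in shared percentile at the 72 shared regions of the loci, by gene, for 4 contrasts of the rank fit, with bars for the standard error. The grey band holds the interquartile range of all 33321 shared regions, and filled points have an adjusted p under 0.05. Filled points occur in the set contrast alone, where 15 lie below 0 and 3 above.

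The sets differed where the genotypes did not pass. For the Tie2-Cre set minus the Mx1-Cre set, 18 of 72 regions passed, which is 25.0%, against 22.2% of all shared regions. Of these 15 were lower in the Tie2-Cre set, which is 20.8%, against 11.4% of all, and 3 were higher, which is 4.17%, against 10.8%. The median difference was -6.74 points in the loci and 0.01 over all. Lower regions were found at each gene, with 4 at Erg, 3 at Gata2 and 2 each at Tal1, Lyl1, Lmo2 and Fli1. Genotype, Cre line, control genotype, block of sample numbers and list length all differ between the sets. Their parts in this difference cannot be told apart. Without FL 3 the count was 5 of 72, beside 3203 of all 33321 shared regions. Without KO 3 it was 8, beside 3990, and without FL 1 it was 10, beside 6203. In these cases, and when ranked by fold enrichment (23, beside 12495), the loci lay below the share of all. Without KO 2 (17, beside 6498) they lay above it, so the order of loci and background changed with the setting. Marker regions differed by set as well, within the whole lists. These list percentiles can shift with list length, which also differs by set and was not corrected for. Mcpt8, a basophil gene, ranked at 73.4 to 92.7 in the Tie2-Cre set, against 15.9 to 58.0 in the Mx1-Cre set, while Cpa3, Ms4a2 and Tpsb2 were held by none. Cd34, which marks the sort gate, ranked at 43.8 to 71.3 in the Tie2-Cre set, against 81.7 to 86.2 in the Mx1-Cre set. The other gate genes did not follow it. Fcgr2b went the other way, at 66.2 to 78.2 in the Tie2-Cre set against 29.1 to 47.2, and the sets overlapped at Kit and Fcgr3. Their part in the result was not tested.

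The largest difference of the set contrast was inside Erg, at chr16:95438843-95440079. In the Tie2-Cre set its shared percentile was 20.2 (KO 3), 5.25 (4S-A 1), 9.65 (4S-A 2) and 29.9 (FL 3), against 64.3 (KO 1), 61.5 (KO 2), 76.1 (FL 1) and 72.1 (FL 2) in the Mx1-Cre set. The sets did not overlap, and the difference was -43.5 ± 7.62 points (SE, adjusted p = 0.00242), or -28.5 points when ranked by fold enrichment (adjusted p = 0.0107). Others in Erg or above it were chr16:95432085-95432996 (-24.2 ± 6.11, adjusted p = 0.0141), chr16:95434319-95434918 (-24.2 ± 8.02, adjusted p = 0.0451) and chr16:95611974-95612688 (-18.8 ± 6.33, adjusted p = 0.0481).

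At Gata2 the -77 enhancer and the inner start were among the regions that fell in the Tie2-Cre set. The shared percentile of the -77 region was 69.3 to 74.7 over the Tie2-Cre set, against 86.3 to 91.4 in the 4 of the Mx1-Cre set (-15.2 ± 3.14 points, SE, adjusted p = 0.00548). The inner start region had 7.97 to 15.6 in the Tie2-Cre set, against 51.5 (KO 1), 16.4 (KO 2), 58.9 (FL 1) and 50.4 (FL 2) in the Mx1-Cre set (-32.0 ± 9.83, adjusted p = 0.0333). Downstream, chr6:88229073-88229750, nearest to Dnajb8, differed by -32.5 ± 7.76 points (adjusted p = 0.0107). The Lyl1 start had 38.9 to 44.0 in the Tie2-Cre set, against 66.2 to 74.7 in the Mx1-Cre set (-28.8 ± 7.02, adjusted p = 0.0118). The region beside it differed by -25.4 ± 7.73 points (adjusted p = 0.0321). Both promoters thus held a peak in all libraries while their order among the shared regions differed by set.

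The region inside Lmo2 had 22.8 to 37.7 in the Tie2-Cre set, against 56.3 to 71.2 in the Mx1-Cre set (-35.8 ± 8.08 points, SE, adjusted p = 0.0083). The strong region above Lmo2 differed by -11.4 ± 3.57 points (adjusted p = 0.0352). Inside Fli1, chr9:32500663-32501355 differed by -32.6 ± 8.07 points (adjusted p = 0.0127), and the region near its upper end by -25.3 ± 6.19 points (adjusted p = 0.0121). In the Tal1 window, chr4:115047759-115048173 differed by -32.9 ± 7.65 points (adjusted p = 0.00959), and the top region near Stil by -3.88 ± 1.29 points (adjusted p = 0.0463). The 3 higher regions lay outside the spans of the members. They were chr4:114994009-114994778, nearest to Stil (37.4 ± 8.96, adjusted p = 0.011), chr2:103906211-103907268, 51.1 kb below Lmo2 (30.9 ± 9.24, adjusted p = 0.0296), and chr8:84725653-84726258, nearest to Nfix (19.1 ± 6.09, adjusted p = 0.0387).

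Presence by set was near the background. The Tie2-Cre set alone, with all 4 of its libraries, held 24 regions of the loci, 16.0% of the 150 that those 4 shared, against 15.9% of all regions. They were 6 each at Lmo2 and Fli1, 4 at Tal1, 3 each at Gata2 and Erg and 2 at Lyl1. The Mx1-Cre set alone held 0 of 74, against 0.301% of all regions.

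The partners of the heptad were counted in the same way, over 619 regions within 100 kb of 16 genes. The list holds RUNX1 (the other member of the heptad) and its cofactor CBFB, the bridging factors LDB1, SSBP2 and SSBP3, the E proteins TCF3 and TCF12, other blood regulators and the targets Kit, Myb and Cd34. KO against FL, over 3 and 3 libraries, lost 0 of 211, against 0.214% of all regions, and gained 5 of 242, which is 2.07%, against 0.754%, with 2 at Ssbp3 and 1 each at Runx1, Ssbp2 and Cbfb. In the rank fit 0 of 190 shared regions passed for KO minus FL and for 4S-A minus KO. For 4S-A minus FL 1 of 190 passed, which is 0.526%, against 0.171% of all, a region in the Runx1 window, chr16:92581585-92582847. Its shared percentile was 68.1 and 71.0 in 4S-A, 38.6, 22.7 and 14.9 in KO, and 1.94, 1.72 and 15.7 in FL. 4S-A lay above all other libraries, by 63.7 ± 10.6 points (SE) over FL (adjusted p = 0.0318). For the set contrast 32 were lower and 14 higher in the Tie2-Cre set, which is 16.8% and 7.37% of the 190, against 11.4% and 10.8% of all.

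Likeness was measured as the root mean square distance, over the 8 libraries, between a gene's share of regions held and that of the 6 loci together, both relative to all regions. Among 10221 genes with at least 25 regions in their windows the median distance was 8.94 percentage points. The genes most like the 6 loci were Ccm2 (1.79 points, 52 regions), Nrg2 (1.94 points, 72 regions) and Cd164 (1.94 points, 35 regions). The members' own distances to their pooled pattern were 4.17 for Erg, 6.45 for Lmo2, 7.51 for Tal1, 8.83 for Gata2, 9.67 for Lyl1 and 10.6 for Fli1. Erg was the nearest to the pooled pattern, and Lyl1 and Fli1 were farther from it than the median gene.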

How the data were processed

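ATAC-seq peak lists of 8 L-GMP libraries (KO, n = 3; 4S-A, n = 2; FL, n = 3) were analysed, grouped by the titles and genotypes of the labels. The tools named in the submitters' processing notes are MACS2, Picard, featureCounts, Bowtie2 2.2.9 and Trim Galore 0.4.4, with mm10 as the build; their roles and parameters are not given in the sources used here. Each library has its own narrowPeak file, deposited by the authors, with peaks called in that library alone. Its score column, as deposited, is a whole number. Its fold column, as deposited, is a ratio, the enrichment at the summit. The −log10 p-value and −log10 q-value of each peak were also deposited by the authors, and the lowest −log10 q was 1.30 to 1.41. None is scaled between libraries, so they served to rank peaks inside a list, and the precision that read depth would give is unknown.

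Peaks on the 19 autosomes and X were joined where they shared at least 1 bp. Gene spans came from RefSeq (GRCm38.p6), whose table used here gives neither strand nor exons, so regions are placed inside or outside a span. Known enhancers were placed within 1 kb of their nominal distance from the first RefSeq start, for Gata2 and Tal1. Ranks were fitted with limma 3.58.1 (R 4.3.3, variance trend, group and set as terms, adjusted p under 0.05), and tables were made with Python 3.11.15, pandas 2.3.3 and numpy 2.4.6. The fit was tested on simulated data. Lost and gained calls carry no p. The regions named are, per locus, the strongest, those at a start or known enhancer, those called in KO against FL or by the fit, and the 3 strongest calls per direction of the other comparisons. Other regions named, such as those of smallest p, were picked after their values were seen. The members, lists and tests were chosen with earlier results of these data known. A gene of the partner list is not reported here, and its regions were left out of the counts for that list.

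Same-numbered KO and FL libraries deviated together (correlations of 0.24, 0.30 and 0.55 over the shared regions), which meets the rule for paired numbers. KO 1 with FL 2 (0.27) and KO 2 with FL 1 (0.28) did so equally, and pairs across the sets did not (-0.41 to -0.36), so the numbers carry the set. Names of peaks inside the lists of KO 1 and KO 2 carry other replicate numbers than their titles, with the same group; titles were used.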

Additional observations from a re-analysis of the deposited data

How the results depend on the processing

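Of 152 values recomputed under another setting for the presence counts, region numbers and rank fit, 109 kept their direction and stayed within 1.5 times for a count or within the spread between libraries for a mean, 39 moved further and 4 reversed. The 109 include counts of 0 that stayed 0 in the genotype contrasts of the rank fit, and these had no direction to keep. They also include KO against FL presence counts with a 4S-A library left out, which those counts do not use. Others of the 109 shrank inside a wide spread: KO minus FL was 25.3 regions and 4.21 points, and 4 regions and 1.76 points with lists of equal length. Heptad regions numbered 166 with lists of equal length, 226 with −log10 q of at least 5, and 294 when built from summits within 250 bp. They numbered 171 with windows of 50 kb and 91 with windows of 10 kb. The share of all regions called was not computed with equal lengths, with −log10 q of at least 5 or from summits. Counts under those settings are of the loci alone. The single KO against FL gain was 0 with lists of equal length, 0 with −log10 q of at least 5 and 0 with windows of 10 kb, and the loss was 0 with windows of 10 kb, where fewer regions enter. Gains inside the Mx1-Cre set were 5 with equal lengths, 9 with 50 kb and 5 with 10 kb, and losses 1 with 50 kb and 0 with 10 kb. KO 3 against FL 3 lost 20 with equal lengths, 20 from summits, 5 with 50 kb and 2 with 10 kb, and gained 14, 41, 16 and 11. 4S-A against FL 3 lost 9 with 50 kb and 5 with 10 kb, and gained 22 from summits and 5 with 10 kb. The mean number of regions held in 4S-A minus that in FL 3 was 9 and became -6.5 with equal lengths. The difference in share relative to all regions was -1.37 points, and became -3.48 with equal lengths, 0.108 with −log10 q of at least 5, -0.448 from summits and 1.22 with 50 kb. The cause of the reversals was not tested.

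Leaving out 1 library gave 1 to 14 gains and 1 to 2 losses for KO against FL. It gave 21 to 35 and 2 to 9 inside the Mx1-Cre set, and 24 to 35 and 15 to 26 for 4S-A against FL 3. By the calling rule these counts could only stay or rise. KO minus FL was then 2.83 to 52 regions and 2.51 to 6.06 points, and 4S-A minus FL 3 was -2 to 20 regions and -2.12 to -0.69 points. The set contrast passed 5 to 17 regions of the loci, beside 3203 to 6688 of all 33321 shared regions. KO minus FL passed 0 in the loci in each case, as did the contrasts with 4S-A where both its libraries stayed in. Without KO 3 or FL 3 the KO minus FL fit passed 132 or 137 regions over the genome, 0 of them in the loci (smallest adjusted p of 0.0544 and 0.0538). The smallest adjusted p in the loci was 0.0519 or more for the 3 genotype contrasts under all settings run. FL 3 cannot be left out of the comparison with 4S-A, nor either library out of KO 3 against FL 3. With the replicate number as a block in the 6 KO and FL libraries, the paired KO minus FL fit passed 0 regions of the loci, as without it, and no call changed. Alternatives for KO 3 against FL 3, for the shares and for the smallest-p regions were added after seeing the data. List length differs by set and read depth is unknown, and their part in the presence calls was not tested.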
